A study of Mus musculus with 13 samples.

Results

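Gene expression in mouse forebrain that lacks Atrx was compared between the embryonic age E13.5 and the day of birth, P0.5. Atrx encodes a chromatin remodelling protein of the SNF2 family, and its gene lies on the X chromosome. The arrays were chosen by their labels alone: 4 arrays of P0.5 Atrx-null forebrain and 3 arrays of E13.5 Atrx-null forebrain, which are 7 of the 13 arrays of the series. The other 6 arrays, 3 at each age, hold wild-type forebrain and served as a background reference. All samples were total RNA of forebrain from male mice of a mixed C57BL/6 and 129/Sv background. The null mice came from Atrx loxP females crossed with males heterozygous for a Cre recombinase gene, and cells in which Cre was not active kept the gene. RNA of 2 forebrains was pooled for each E13.5 array, and no pooling was stated for P0.5. Arrays are named 1, 2 and 3 at E13.5 and 1, 2A, 2B and 3 at P0.5, and 2A and 2B came from 1 litter. Age therefore cannot be told apart from litter, pooling and dissection.

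Between these ages the forebrain turns from a tissue of dividing progenitors into one of young neurons. At E13.5 radial glia line the ventricle, divide, and give rise to intermediate progenitors and to the first neurons of the cortical plate. By birth most cortical and striatal neurons have left the cell cycle, axons have reached their targets, the first synapses have formed, and the production of astrocytes and oligodendrocyte precursors has begun.

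The arrays were Affymetrix Mouse Genome 430 2.0, on which a probe set of short oligonucleotides reads 1 transcript and gives a signal in arbitrary units scaled to a target of 150. Signals were taken as log2, and each array was centred on its own median, which lay between 40.1 and 53.8 over the 13 arrays. A change is the mean at P0.5 minus the mean at E13.5 on that scale, given with its standard error (SE), and a probe set is called where limma's Benjamini-Hochberg adjusted p is under 0.05. Values of each array are printed as deposited, in the order E13.5 1, 2, 3 and P0.5 1, 2A, 2B, 3. Levels are not compared between probe sets, and for dim signals the size of a change depends on the scale. Over all genes the median change was -0.07 after centring and 0.12 with signals as deposited, so changes are relative to the array median.

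The annotation used here gave 7 probe sets to the targeted gene alone, fewer than the study counted for it. The brightest Atrx probe set gave 584, 678 and 566 at E13.5 and 339.7, 437, 333 and 564 at P0.5 in the null arrays. In wild-type forebrain the same probe set gave 1549, 1689 and 1553 at E13.5 and 1381, 1391 and 1644 at P0.5. On this probe set all 7 null arrays lay below all 6 wild-type arrays, and signal remained in the null tissue at both ages. Within the null forebrain this probe set was lower at P0.5 by a log2 change of -0.76 ± 0.23 (adjusted p = 0.024), a call lost without any 1 of 4 null arrays (E13.5 1 and 2, P0.5 1 and 2B), with an adjusted p of up to 0.080, and also lost without limma's moderation of the variance, with the replicate number as a block and with the mean of the Atrx probe sets. A second Atrx probe set had a change of -0.60 (adjusted p = 0.044), a call that was lost with either scaling alternative (signals as deposited or quantile normalized), with the null arrays fitted alone, with the littermate pair as a random block (adjusted p = 0.0599), with 2A and 2B averaged, with the replicate number as a block, without moderation of the variance and without any 1 of 7 arrays (adjusted p up to 0.178), and the other 5 ranged from -0.21 to 0.18 without a call. Where each probe set lies relative to the deleted part was not examined here.

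The labelled tissue was checked against its markers. Emx2, a homeobox gene of the dorsal telencephalon, gave 836, 734 and 1057 at E13.5 and 251, 284, 211 and 211 at P0.5. Lhx2, a LIM-homeobox gene that specifies cortex, gave 1810.4, 1703 and 2165 at E13.5 and 625, 821, 615 and 658 at P0.5. Both were bright at E13.5 and fell at P0.5, with changes of -2.05 and -1.67. Tubb3, the tubulin of neurons, gave 1303, 1185 and 2006 at E13.5 and 2850.5, 2690.3, 2502 and 2278 at P0.5 and was not called (change 0.63, adjusted p = 0.061), although it was with signals as deposited or quantile normalized. A list of 18 measured hindbrain and spinal cord genes, mostly of the Hox clusters, summed to between 498 and 614 at E13.5 and between 438 and 514 at P0.5, and 2 of its members were called higher and 0 lower, with 1 higher and 3 lower once 16 was added to every signal. In bulk tissue, fewer cells of a type and less RNA per cell cannot be told apart.

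Of 45037 probe sets, 15629 (34.7%) were called between the ages in Atrx-null forebrain, with 6237 (13.8%) higher and 9392 (20.9%) lower at P0.5. Calls of at least 2-fold numbered 8639 (19.2%). With 1 probe set for each of 18193 genes, 7206 genes (39.6%) were called, 2992 (16.4%) higher and 4214 (23.2%) lower, and these shares are the background for every list. In 50.1% of all genes the null arrays of the ages did not overlap, so the absence of overlap in a gene named for its small p is a description of it and no more. The share of calls that were higher was 39.9% after centring, 54.2% with signals as deposited and 48.5% after quantile normalization, so the balance of rises and falls depended on the scaling. The SE of a change had a median of 0.25 over all probe sets.

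**Figure D1:**
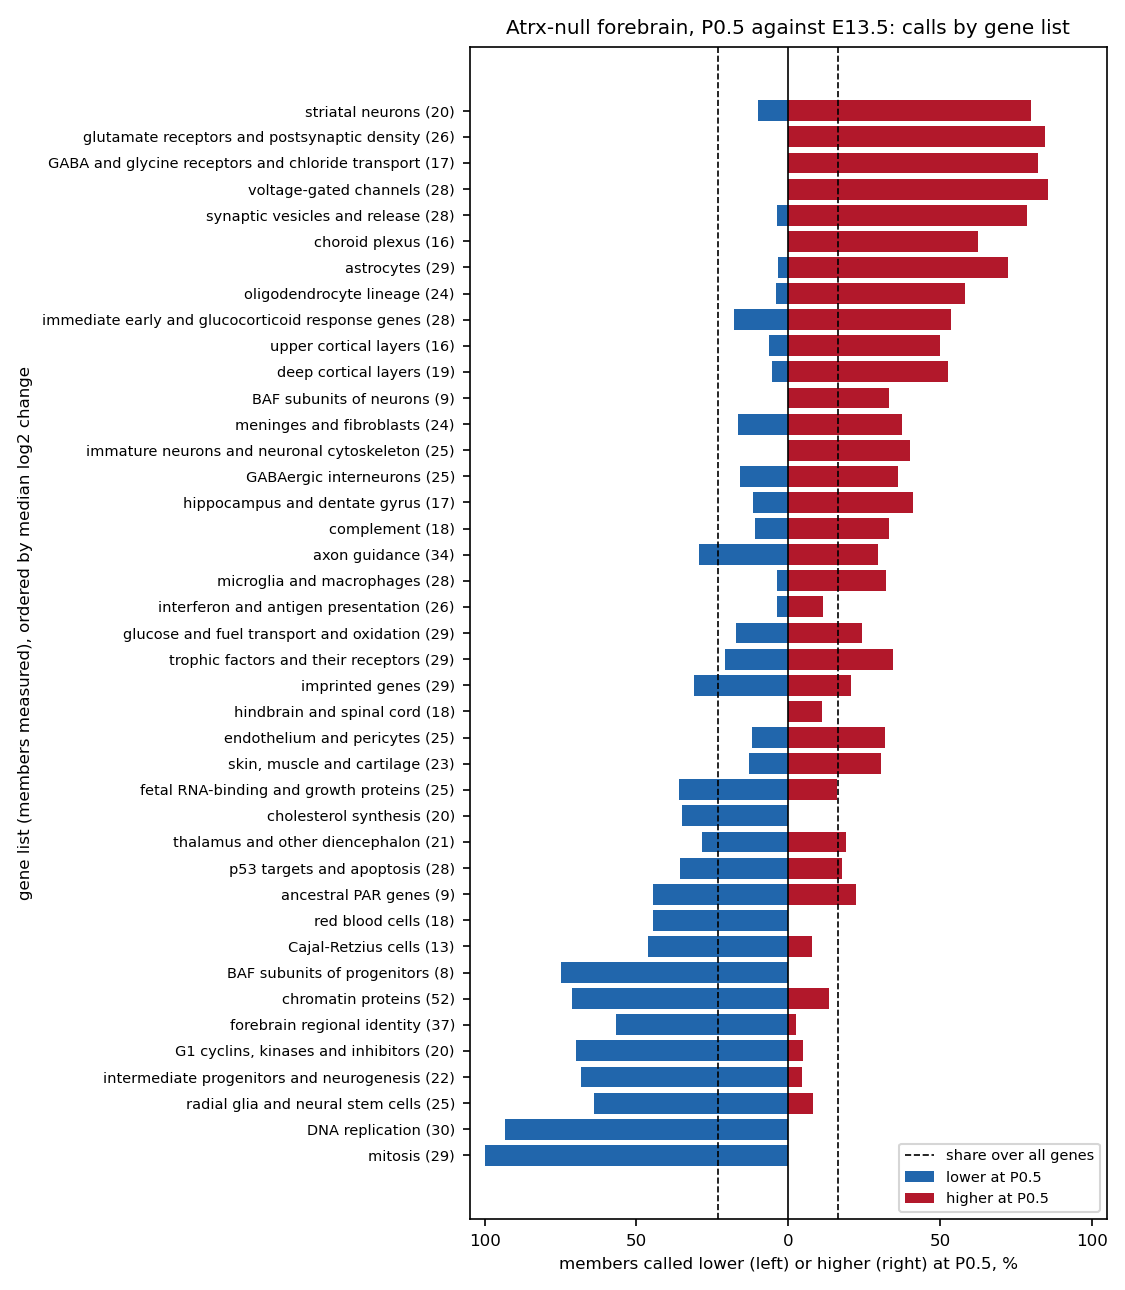
Share of measured members called lower (blue, left) or higher (red, right) at P0.5 in Atrx-null forebrain for each gene list, with the number measured in parentheses and dashed lines at the shares over all genes (23.2% lower, 16.4% higher). Mitosis, with 29 of 29 members lower, stands at one end, and the synaptic, channel and striatal lists stand at the other.

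The largest rises included genes of neurons, glia and meninges. By the rule for naming genes, the 12 largest rises among genes with a mean signal of at least 150 in 1 of the groups were Stum, Plppr5, Scrg1, Grm5, Ptgds, Slc13a4, Ntrk2, Clec2l, Caln1, Vgf, Sult1a1 and Arpp21. Stum gave 5.1, 7.1 and 5.26 at E13.5 and 763, 741, 858 and 765 at P0.5, a log2 change of 6.90 ± 0.28 that was 5.05 once 16 was added to every signal. Grm5, a metabotropic glutamate receptor, gave 3.47, 8.53 and 5.97 at E13.5 and 504, 339.5, 411 and 322 at P0.5 on its probe set with the largest change. Vgf, a secreted neuropeptide precursor, gave 10.02, 10.2 and 7.1 at E13.5 and 318, 287, 393 and 303 at P0.5. In each of these the P0.5 arrays were bright and alike while the E13.5 signals were dim, so the fold is less certain than the direction. Arpp21, a phosphoprotein of striatal and cortical neurons, gave 18.8, 26.5 and 31.9 at E13.5 and 974, 724, 982 and 630.2 at P0.5, also on its probe set with the largest change. Ntrk2, the receptor of brain-derived neurotrophic factor, was read differently by its probe sets. The probe set with the largest change rose by a log2 change of 5.10, whereas the brightest had a change of 0.22 (adjusted p = 0.31).

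The 12 largest falls by the same rule were Hbb-y, Hbb-bh1, Hmga2, Neurog1, Hba-x, Pole, Bub1b, Foxm1, Neurog2, Mfap4, Nasp and Spdl1. Hbb-y, the embryonic beta-like globin, gave 3511, 3056 and 5208 at E13.5 and 0.388, 1.17, 0.442 and 0.385 at P0.5 on its probe set with the largest change. That change was -13.01 as log2 signal and -7.99 with the offset of 16, and on the brightest probe set of the gene it was -10.07 as log2 signal. Hbb-bh1, another embryonic globin, gave 837, 327 and 769 at E13.5 and 1.1, 1.73, 2.06 and 3.88 at P0.5. Embryonic globins are made by primitive red blood cells, which are replaced in the fetal circulation, and RNA of blood is part of a whole forebrain sample. Hmga2, an architectural chromatin protein of fetal stem cells, gave 1709, 1122 and 1228 at E13.5 and 39.4, 35.7, 38.1 and 32.5 at P0.5 on its brightest probe set. Foxm1, a transcription factor of mitotic genes, gave 342, 258 and 272 at E13.5 and 6.11, 7.84, 6.6 and 7.37 at P0.5 on its probe set with the largest change. The rule admitted only genes whose ages did not overlap.

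Radial glia and neural stem cell genes mostly fell: 16 of 25 were called lower and 2 higher, with a median log2 change of -1.43. Both that were called higher rose at least 2-fold, and the highest change in the list was 2.52. Gli3, a transcription factor of the hedgehog pathway in dorsal progenitors, gave 1167, 962 and 1229 at E13.5 and 167, 212, 171 and 206 at P0.5 (change -2.75 ± 0.18, adjusted p = 2.5e-06). Notch1, the receptor that keeps progenitors undifferentiated, gave 861, 792 and 851 at E13.5 and 212, 205, 203 and 213 at P0.5 (change -2.19 ± 0.15, adjusted p = 2.7e-06). Pax6, a homeobox gene of cortical radial glia, gave 542, 512 and 467 at E13.5 and 95.9, 121, 104 and 142 at P0.5. In each of these 3 genes every P0.5 array was below every E13.5 array, where 50.1% of all genes had no overlap in either direction. A pair of bright members was not called: Fabp7, the brain fatty acid binding protein of radial glia and astrocytes, had a change of 0.01 (adjusted p = 0.98), and Cdh2, N-cadherin, had one of 0.10 (adjusted p = 0.68).

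Genes of intermediate progenitors and of neurogenesis also fell, 15 of 22 being lower and 1 higher, with a median of -1.23. Neurog2, the proneural factor of cortical projection neurons, gave 1666, 1574 and 1938 at E13.5 and 63.4, 79.8, 37.4 and 69.1 at P0.5 (change -5.02 ± 0.32, adjusted p = 1.9e-06). Neurog1, its close relative, gave 229, 190.3 and 172 at E13.5 and 0.763, 1.27, 0.753 and 1.22 at P0.5. Both were among the 12 largest falls. Gadd45g, a gene of newly born neurons, gave 432, 529 and 513 at E13.5 and 47.9, 59.6, 55.6 and 67.8 at P0.5. Mfng, a glycosyltransferase that modifies Notch, gave 633, 669.9 and 719.6 at E13.5 and 113, 123, 99.4 and 127 at P0.5. The member that rose was Elavl3, a neuronal RNA-binding protein, which gave 679.9, 675 and 697 at E13.5 and 1194, 1112, 1282 and 1169 at P0.5 (change 0.61, adjusted p = 0.0091).

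Among the 41 lists, the mitosis and DNA replication lists had the largest shares of members called. All 29 measured mitosis genes were lower at P0.5, with a median log2 change of -3.12, and so were 28 of 30 DNA replication genes, with a median of -2.60. Kif11, the kinesin that separates spindle poles, gave 534, 655 and 559 at E13.5 and 63.0, 68.0, 69.4 and 66.0 at P0.5 (change -3.31 ± 0.17, adjusted p = 7.5e-07). Plk1, a mitotic kinase, gave 524, 640.4 and 574 at E13.5 and 78.7, 103, 66.2 and 62.3 at P0.5. Cdc20, which activates the anaphase-promoting complex, gave 2005, 1721 and 1847 at E13.5 and 228, 247, 174 and 272 at P0.5. At P0.5 the signals of these 3 genes were far lower but still above the array medians. Of the replication genes, Mcm3, a subunit of the replicative helicase, gave 1321, 1113 and 1521 at E13.5 and 114, 113, 76.8 and 116 at P0.5 (change -3.85 ± 0.21, adjusted p = 1e-06). Gmnn, the inhibitor of origin licensing, gave 773, 667 and 655 at E13.5 and 58.5, 56.0, 39.4 and 61.2 at P0.5. Tk1, thymidine kinase of dividing cells, gave 418, 424 and 473 at E13.5 and 24.4, 27.2, 24.0 and 30.9 at P0.5. Pcna, the sliding clamp, had a smaller change than these, with 2564, 2134 and 2976 at E13.5 and 906, 1016, 816 and 1198 at P0.5 and a change of -1.56. Of the G1 cyclins, kinases and inhibitors 14 of 20 were lower and 1 higher. Ccnd1, the cyclin that drives progenitors through G1, gave 834, 814 and 869 at E13.5 and 356, 288, 321 and 327 at P0.5. Ccnd2, the D-type cyclin of basal progenitors, gave 2692, 2564 and 3320.4 at E13.5 and 1023, 1227, 762.2 and 1121 at P0.5. E2f8, an E2F family member made in S phase, had a change of -4.27 (adjusted p = 2e-05).

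**Figure D2:**
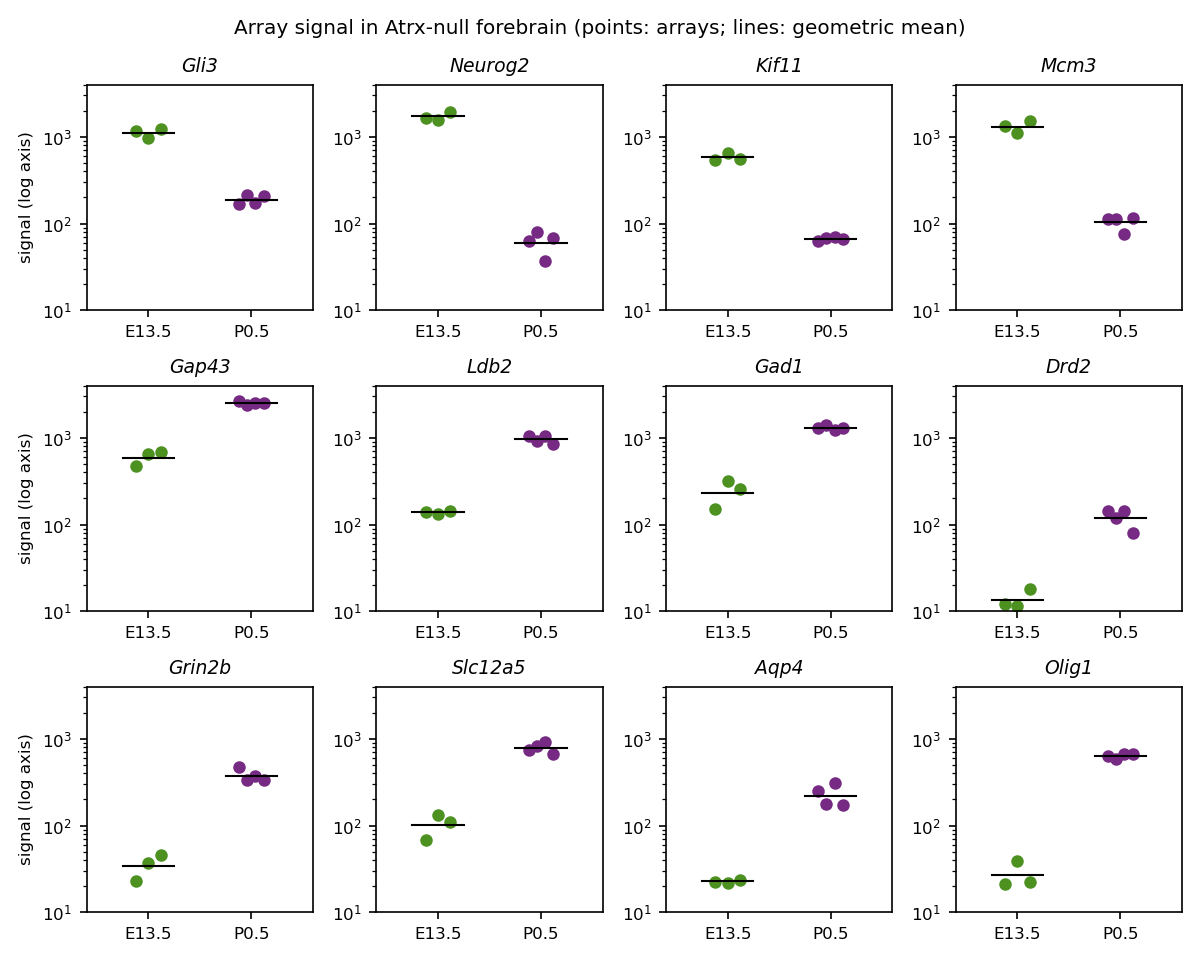
Signal on each of the 3 E13.5 (green) and 4 P0.5 (purple) Atrx-null arrays for 12 genes, on log axes in arbitrary units, with lines at the geometric means. Progenitor and cell cycle genes (Gli3, Neurog2, Kif11, Mcm3) lie lower at P0.5 on every array and the neuronal and glial genes lie higher on every array.

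Promoters of the genes that fell were read for letters of known cell cycle elements, since the members moved together. The sequences are those of RefSeq for the mouse assembly GRCm38.p6, and 23 of the 29 mitosis genes and 24 of the 30 replication genes had one. The cell cycle genes homology region (CHR) was searched as TTTGAA or TTCGAA and the E2F site as GCGGGAA, a motif added after the changes were known, each on both strands in the 250 bases before the start of transcription. A gene was counted where any of its promoters held the letters. CHR letters stood in 9 of 23 mitosis genes (39.1%), 5 of 24 replication genes (20.8%) and 5284 of 27025 genes with a promoter (19.6%). E2F letters stood in 8 of 24 replication genes (33.3%), in 0 of 23 mitosis genes and in 1184 of all (4.38%). In the synaptic vesicle list 5 of 21 genes (23.8%) held the CHR letters and 1 (4.76%) the E2F letters. In the glutamate receptor list 1 of 17 (5.88%) held the CHR letters and 0 the E2F letters. These are matches of letters and not measured sites. Promoters on a single chromosome were left out of the choice of sequences to show. Of the rest, the called member of each list with the smallest p that held the letters in its last 150 bases, and the next, are shown. Matched letters are in capitals, 5′ to 3′ on the strand of the gene, and each sequence ends at the base before the start.
Kif11, chr19:37376232-37376381, + strand: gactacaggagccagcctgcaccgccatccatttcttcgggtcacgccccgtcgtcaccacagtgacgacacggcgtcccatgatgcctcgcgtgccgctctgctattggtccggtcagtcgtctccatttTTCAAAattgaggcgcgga
Cdk1, chr10:69352913-69353062, - strand: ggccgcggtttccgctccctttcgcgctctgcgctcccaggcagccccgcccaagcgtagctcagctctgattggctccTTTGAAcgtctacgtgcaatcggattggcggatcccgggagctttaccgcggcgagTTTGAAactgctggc
Uhrf1, chr17:56303187-56303336, + strand: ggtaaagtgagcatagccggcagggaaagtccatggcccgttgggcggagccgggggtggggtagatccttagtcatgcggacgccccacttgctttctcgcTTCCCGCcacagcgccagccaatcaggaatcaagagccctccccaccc
Cdc6, chr11:98908001-98908150, + strand: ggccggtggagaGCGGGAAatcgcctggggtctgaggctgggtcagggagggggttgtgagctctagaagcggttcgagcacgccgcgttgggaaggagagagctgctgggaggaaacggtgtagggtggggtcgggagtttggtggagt
The Kif11 match begins 19 bases before the start and reads on the other strand, and Cdk1, the kinase that drives entry into mitosis, has 2 matches. Uhrf1, which keeps DNA methylation through replication, gave 1065, 846 and 1125 at E13.5 and 65.5, 74.2, 62.1 and 75.0 at P0.5 on the arrays, and its match begins 48 bases before the start. Cdc6, which loads the replicative helicase, had a match that begins 138 bases before the start.

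Genes of immature neurons and their cytoskeleton were called higher in 10 of 25 cases and lower in 0, with a median of 0.50. Gap43, the growth cone protein, gave 470.0, 645 and 680.5 at E13.5 and 2619, 2374, 2495 and 2514 at P0.5 (change 1.90 ± 0.24, adjusted p = 0.00012). Nefl, the light neurofilament, gave 153, 202 and 201 at E13.5 and 713, 527, 652 and 463 at P0.5. Dclk1, a microtubule kinase of migrating neurons, gave 327, 464 and 362 at E13.5 and 1375, 1340.3, 1459 and 1320.2 at P0.5. These were already present at E13.5 and rose from there. The 2 brightest other members, Stmn1 and Tuba1a, had changes of 0.12 and 0.10 and were not called (adjusted p = 0.62 and 0.76).

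Markers of cortical neurons rose in both layer groups, 10 of 19 for deep layers and 8 of 16 for upper layers, with 1 lower in each. Ldb2, a LIM-domain binding cofactor of deep layer neurons, gave 138, 133 and 143 at E13.5 and 1035, 918, 1051 and 843 at P0.5 (change 2.61 ± 0.13, adjusted p = 7.5e-07). Crym, a thyroid hormone binding protein of deep layers, gave 57.0, 106 and 81.5 at E13.5 and 544, 483, 474 and 437 at P0.5. Ngef, a neuronal guanine nucleotide exchange factor, gave 7.78, 23.8 and 23.8 at E13.5 and 238, 263, 276 and 186 at P0.5. Of the upper layer markers, Mef2c, an activity-regulated transcription factor, gave 264, 179 and 376 at E13.5 and 2073, 2093, 2362 and 2305 at P0.5 (change 2.89 ± 0.26, adjusted p = 1.5e-05). Inhba, the activin subunit, gave 7.62, 8.41 and 6.16 at E13.5 and 179, 166, 170.4 and 203 at P0.5. The upper layer gene that fell was Nrn1, neuritin, with 605, 696 and 529.8 at E13.5 and 276, 334, 320.1 and 283 at P0.5. Cux1, which marks upper layers and their progenitors, had a change of -0.47 (adjusted p = 0.12). For hippocampus and dentate gyrus 7 of 17 were higher and 2 lower. Nr3c2, the mineralocorticoid receptor, gave 17.9, 18.5 and 12.01 at E13.5 and 107, 116, 143 and 125 at P0.5. Lef1, a Wnt effector needed for the dentate gyrus, gave 237, 144 and 197 at E13.5 and 88.3, 93.4, 92.5 and 99.7 at P0.5 and was 1 of the 2 that fell.

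Of the striatal neuron genes 16 of 20 were called higher and 2 lower, with a median of 1.83. That was the highest median of the lists on the log2 scale, but with the offset of 16 it was 1.46, below the 1.53 of the GABA and glycine receptor list. Drd2, the dopamine receptor of indirect pathway neurons, gave 12.2, 11.5 and 18.1 at E13.5 and 145, 119, 144 and 79.1 at P0.5 (change 2.93 ± 0.22, adjusted p = 5.5e-06). Penk, the enkephalin precursor of the same neurons, gave 38.3, 37.6 and 44.7 at E13.5 and 324, 240.2, 324 and 256 at P0.5. Ppp1r1b, the dopamine-regulated phosphatase inhibitor DARPP-32, gave 56.8, 66.9 and 47.9 at E13.5 and 403, 410.1, 426 and 339 at P0.5. All P0.5 arrays exceeded all E13.5 arrays in the 3 genes (50.1% of all genes had no overlap). Of the markers of GABAergic interneurons 9 of 25 were higher and 4 lower, with a median of 0.47. Gad1, an enzyme of GABA synthesis, gave 153, 315 and 254 at E13.5 and 1308, 1388, 1229 and 1309 at P0.5 (change 2.32 ± 0.32, adjusted p = 0.00027). Npy, neuropeptide Y, gave 60.9, 104 and 112 at E13.5 and 715, 639.5, 978 and 658 at P0.5. Sox6, which acts in interneurons born in the medial ganglionic eminence and also in progenitors, gave 895, 803 and 806 at E13.5 and 251, 221, 215 and 252 at P0.5 and fell. The E13.5 array 1 was low in Lhx6, a factor of those interneurons, with 36.1, 182 and 139 at E13.5 and 280.3, 302, 255 and 363 at P0.5, and high in Gbx2, a thalamic gene, with 108, 17.8 and 11.5 at E13.5 and 12.8, 22.6, 10.04 and 8.22 at P0.5. These 2 genes were chosen after their values were seen. Without that array 8 interneuron markers were higher.

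Cajal-Retzius cells, the early neurons of the marginal zone, had 6 of 13 markers lower and 1 higher, and the number higher was 3 with signals as deposited and 4 after quantile normalization, with 6 lower in each. Barhl2, a homeobox gene, gave 39.8, 36.7 and 37.4 at E13.5 and 8.84, 10.02, 6.76 and 7.18 at P0.5. Reln, the secreted protein that these cells are known for, gave 1787, 1845 and 1535 at E13.5 and 1803, 2266, 1926 and 2268 at P0.5 and had a change of 0.07 (adjusted p = 0.77), so the defining marker was not called, while Barhl2 and the transcription factors Ebf2, Ebf3 and Nhlh2 were lower.

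Synaptic genes rose on both sides of the synapse. Of the synaptic vesicle and release genes 22 of 28 were higher and 1 lower (median 1.34). Of the glutamate receptor and postsynaptic density genes 22 of 26 were higher and 0 lower (median 1.66). Vamp2, the vesicle SNARE, gave 425, 559 and 473 at E13.5 and 1512, 1550.2, 1704 and 1198 at P0.5 (change 1.43 ± 0.14, adjusted p = 3.1e-05). Syn2, a synapsin that tethers vesicles, gave 71.6, 129 and 87.8 at E13.5 and 530.3, 399, 548 and 475 at P0.5. Cplx1, a complexin that clamps release, gave 216, 340.3 and 250.03 at E13.5 and 1390.4, 1406, 1693 and 1191 at P0.5. Each of these presynaptic genes was higher on all 4 P0.5 arrays than on any E13.5 array (50.1% of all genes had no overlap). Grin2b, the NMDA receptor subunit of immature synapses, gave 23.3, 36.8 and 45.8 at E13.5 and 472, 338, 372 and 331 at P0.5 (change 3.28 ± 0.30, adjusted p = 1.7e-05). Grm3, a metabotropic glutamate receptor, gave 28.1, 30.8 and 20.8 at E13.5 and 505, 390.4, 583 and 569 at P0.5. Dlg2, a postsynaptic scaffold, gave 52.8, 99.8 and 68.6 at E13.5 and 993, 829.6, 1024 and 696 at P0.5. Rab3a, a vesicle GTPase, was not called, with a change of 0.30 (adjusted p = 0.14), but was with signals as deposited or quantile normalized.

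GABA and glycine receptor and chloride transport genes were higher in 14 of 17 cases and lower in 0, with a median of 1.56. Gabra5, a receptor subunit of early hippocampal and cortical neurons, gave 16.8, 49.9 and 21.6 at E13.5 and 783, 611, 793 and 549 at P0.5 (change 4.50 ± 0.42, adjusted p = 1.9e-05). Chloride transporters are known to set whether GABA excites or inhibits a neuron. Slc12a5 (KCC2), which exports chloride in mature neurons, gave 68.5, 133 and 111 at E13.5 and 735, 826, 913 and 668 at P0.5 and a change of 2.77 (adjusted p = 0.00016). Slc12a2 (NKCC1), which imports it in immature cells, gave 666, 705 and 538 at E13.5 and 565, 643, 611 and 659 at P0.5 and a change of -0.22 (adjusted p = 0.35). Of this pair 1 gene was therefore called higher and the other was not called in either direction. Voltage-gated channel genes were higher in 24 of 28 cases and lower in 0 (median 1.37). Scn2a, the sodium channel of young axons, gave 63.2, 91.1 and 89.2 at E13.5 and 955, 741, 857 and 627 at P0.5 (change 3.11 ± 0.29, adjusted p = 1.9e-05). Kcnd2, a potassium channel of dendrites, gave 142, 156 and 130.1 at E13.5 and 719.7, 659.9, 785 and 676 at P0.5.

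Axon guidance genes split evenly after centring, 10 of 34 higher and 10 lower, and with signals as deposited or quantile normalization 16 were higher. Robo3, the receptor of commissural axons, gave 70.2, 74.1 and 99.9 at E13.5 and 5.23, 1.54, 2.85 and 9.31 at P0.5 (change -4.58 ± 0.52, adjusted p = 6.3e-05). Slit2, a midline repellent, gave 503, 544 and 486 at E13.5 and 297, 316, 258 and 270.4 at P0.5. Epha4, an ephrin receptor, gave 1144, 1167 and 1270.1 at E13.5 and 900.1, 891, 871 and 1004 at P0.5 and a change of -0.57 (adjusted p = 0.0057).

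Glial genes rose. Of the astrocyte markers 21 of 29 were higher and 1 lower, with a median of 1.23. Hepacam, an adhesion molecule of astrocytes, gave 23.0, 28.4 and 19.6 at E13.5 and 386, 411, 457 and 433 at P0.5 (change 3.98 ± 0.22, adjusted p = 1.1e-06). Aqp4, the water channel of astrocyte endfeet, gave 22.6, 21.9 and 23.8 at E13.5 and 249.4, 175, 306 and 174 at P0.5. Aldh1l1, a folate enzyme used as an astrocyte marker, gave 40.6, 60.7 and 56.2 at E13.5 and 359.8, 369.6, 442 and 397 at P0.5. The ages did not overlap in any of the 3 (nor in 50.1% of all genes). Gja1, connexin 43, which radial glia also make, had a change of 0.09 (adjusted p = 0.76). The oligodendrocyte lineage had 14 of 24 higher and 1 lower (median 0.83). Olig1, a transcription factor of its precursors, gave 21.5, 39.0 and 22.6 at E13.5 and 638, 583, 667 and 670.2 at P0.5 (change 4.40 ± 0.32, adjusted p = 4.3e-06). Gpr17, a receptor of committed precursors, gave 5.02, 3.5 and 1.05 at E13.5 and 56.3, 37.2, 61.0 and 54.3 at P0.5. Signals of Gpr17 were low at both ages, whereas Olig1 was above the array medians on every P0.5 array.

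Markers of other cell types in the sample were counted too, where 16.4% of all genes were higher and 23.2% lower. The summed signal of 28 microglia and macrophage genes lay between 1839 and 2168 at E13.5 and between 2966 and 3037 at P0.5, with 9 called higher and 1 lower. Without E13.5 array 1 the number higher was 4. Csf1r, the receptor that microglia need to survive, had a change of 0.49 (adjusted p = 0.053; called with signals as deposited or quantile normalized), and Cd14, a co-receptor of innate immunity, had one of 1.41 (adjusted p = 0.0019). Endothelium and pericyte genes were higher in 8 of 25 cases and lower in 3, with a median change of -0.14. The count higher was 4 without E13.5 array 1. Slco1c1, the thyroxine transporter of the blood-brain barrier, gave 48.8, 79.0 and 50.2 at E13.5 and 557, 693, 654 and 699 at P0.5 and rose. Slc2a1, the glucose transporter GLUT1, gave 946, 865 and 977 at E13.5 and 355, 547, 377 and 451 at P0.5 and fell. Red blood cell genes were lower in 8 of 18 cases and higher in 0. Their summed signal ran from 7336 to 10430 at E13.5 and from 4108 to 4280 at P0.5, and most of that fall was in the embryonic globins. Thalamic and other diencephalic genes were lower in 6 of 21 cases and higher in 4, with sums of 4573 to 4917 against 3619 to 3984. Skin, muscle and cartilage genes were higher in 7 of 23 cases and lower in 3, with sums of 1166 to 1189 against 802 to 1037. Of these genes 15 were dim at both ages, and the median change was -0.20, so calls and sums went opposite ways. The part of these cell types in the other lists was not tested.

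Choroid plexus markers rose in the null forebrain, 10 of 16 being higher and 0 lower, with a median of 1.27. Without limma's moderation of the variance 2 were higher, and 6 among probe sets above the median signal, where dim members were not tested. The choroid plexus is the epithelium that makes cerebrospinal fluid, and how much of it stays with a forebrain depends on the dissection. The summed signal of the list as deposited ran from 2601 to 3754 at E13.5 and from 4645 to 5744 at P0.5. Most of that sum on every null array was Ttr, which was not called, so the sum mainly follows 1 gene. Aqp1, its apical water channel, gave 28.3, 63.2 and 21.2 at E13.5 and 136, 118, 103 and 124 at P0.5 (change 1.65 ± 0.34, adjusted p = 0.0029). Folr1, a folate receptor, gave 56.5, 87.4 and 50.1 at E13.5 and 229, 203, 184 and 129.7 at P0.5. Trpm3, a cation channel, gave 21.7, 47.2 and 30.6 at E13.5 and 245, 133, 182 and 144 at P0.5. Ttr, transthyretin, its most characteristic product, gave 2506, 2699 and 2074 at E13.5 and 3638, 4085, 3161 and 3965 at P0.5 and was not called (change 0.43, adjusted p = 0.11), although it was with signals as deposited or quantile normalized. In wild-type forebrain the same list had 3 members higher and 2 lower and a median of -0.01, where 13.6% of all genes were higher and 21.3% lower. The median difference between genotypes over the 16 genes was 1.04, and the smallest adjusted p of that difference was 0.59, so no member passed the test. Otx2, a homeobox gene of the plexus chosen after its values were seen, had the largest difference of the list, with a change of -1.21 in the null and -4.95 in wild type (adjusted p of the difference = 0.59).

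Meninges and fibroblast genes were higher in 9 of 24 cases and lower in 4. Their summed signal ran from 7290 to 8170 at E13.5 and from 10770 to 12530 at P0.5. Ptgds, the prostaglandin D synthase of the arachnoid, gave 43.5, 46.9 and 47.4 at E13.5 and 2632, 2514, 2295 and 2428 at P0.5 (change 5.56 ± 0.22, adjusted p = 1.8e-07). Slc13a4, a sulfate transporter, gave 3.5, 9.79 and 2.01 at E13.5 and 233, 209, 222 and 233 at P0.5. Lum, a collagen-binding proteoglycan, gave 369.7, 307 and 354 at E13.5 and 136, 124, 123 and 169 at P0.5 and fell. Members of this list therefore moved both ways.

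**Figure D3:**
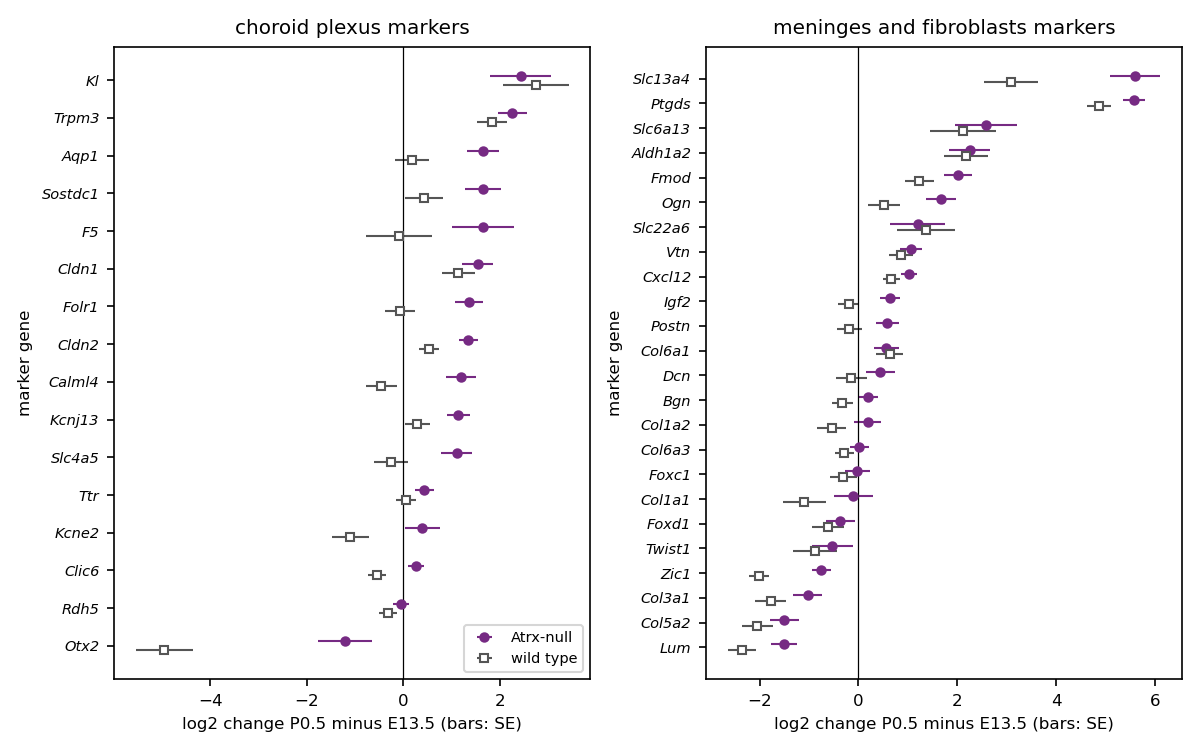
Log2 change from E13.5 to P0.5 with its SE for each choroid plexus marker (left) and each meninges and fibroblast marker (right), in Atrx-null (purple circles) and wild-type (open squares) forebrain. Most choroid plexus points of the null lie right of the wild-type points, and no gene of either list passed the test of the difference between genotypes (smallest adjusted p = 0.59).

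Chromatin proteins were mostly lower, 37 of 52 with 7 higher, and a median of -0.85. Some, such as Uhrf1, are also replication genes. Hells, a SNF2 family remodeller needed for DNA methylation, gave 889.5, 676 and 723 at E13.5 and 62.4, 50.8, 48.8 and 51.6 at P0.5 (change -4.02 ± 0.22, adjusted p = 1e-06). Asf1b, a histone chaperone of replicating cells, gave 464, 419 and 385 at E13.5 and 66.0, 81.9, 51.2 and 64.4 at P0.5. The BAF complex, another SNF2-type remodeller, is known to exchange subunits when progenitors become neurons. Of the subunits known from progenitors 6 of 8 were lower and 0 higher. Of those known from neurons 3 of 9 were higher and 0 lower, and 5 were higher with signals as deposited or quantile normalization. Actl6a (BAF53a) gave 1388, 1322 and 1426 at E13.5 and 328, 333, 261 and 323 at P0.5 (change -2.34 ± 0.16, adjusted p = 2.8e-06). Actl6b (BAF53b), which takes its place in neurons, gave 168, 190.2 and 304 at E13.5 and 669.6, 527, 519.8 and 449 at P0.5 (change 1.14 ± 0.34, adjusted p = 0.021). The call of Actl6b was lost without E13.5 array 1, E13.5 array 2 or P0.5 array 1, with an adjusted p of up to 0.0866. Smarca4 (BRG1), one of the 2 ATPases, gave 2104, 2158 and 2394 at E13.5 and 1456, 1422, 1208 and 1335 at P0.5 and fell, while Smarca2 (BRM), the other, gave 392, 452 and 473 at E13.5 and 1134, 1005, 967 and 999 at P0.5 and rose.

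Genes of regional identity in the forebrain were lower in 21 of 37 cases and higher in 1, with a median of -1.02. Dmrt3, a factor of the medial cortex, gave 522, 416 and 497 at E13.5 and 39.6, 61.1, 35.2 and 39.5 at P0.5 (change -3.66 ± 0.32, adjusted p = 1.2e-05). Otx1, a homeobox gene of the ventricular zone and deep layers, gave 307, 205 and 329 at E13.5 and 32.4, 15.8, 32.7 and 32.0 at P0.5. Sfrp1, a secreted Wnt modulator, gave 1258, 1199.5 and 1550.1 at E13.5 and 406, 469, 396 and 434 at P0.5. The gene that rose was Id2, an inhibitor of basic helix-loop-helix factors, with 641, 677 and 708 at E13.5 and 1991, 1879.5, 1782 and 2108 at P0.5. Nr2f1 (COUP-TFI), a factor of caudal cortex, had a change of -0.16 (adjusted p = 0.6). Fetal RNA-binding and growth proteins were lower in 9 of 25 cases and higher in 4, and 8 were higher with signals as deposited or quantile normalized. Igf2bp1, an mRNA-binding protein of fetal progenitors, gave 731, 508 and 691 at E13.5 and 62.4, 60.6, 47.7 and 54.2 at P0.5 and fell. Rbfox1, a splicing factor of neurons, gave 202, 232 and 229.8 at E13.5 and 1209, 1153, 1188 and 1208 at P0.5 and rose.

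The genes that the study calls ancestral pseudoautosomal have relatives in or near the pseudoautosomal region of other mammals. Those that the study could map lie on autosomes in the mouse. The genes were chosen by the study on these samples and are no independent evidence of a direction. They had 4 of 9 probe sets lower and 2 higher between the ages. The number lower was 2 without E13.5 array 1 and 2 without E13.5 array 2. Csf2ra, a receptor subunit for a myeloid growth factor, gave 20.7, 6.3 and 12.4 at E13.5 and 33.8, 26.8, 25.9 and 28.5 at P0.5 (change 1.10, adjusted p = 0.032). Cd99, a cell surface protein, gave 126, 141 and 138 at E13.5 and 116, 129, 114 and 107 at P0.5 (change -0.40, adjusted p = 0.022), a call lost with signals as deposited and with quantile normalization. Leaving out 1 array took the call of Csf2ra in 5 of 7 cases (adjusted p up to 0.129, E13.5 array 2) and that of Cd99 in 4 (up to 0.0732, E13.5 array 3). Shox2, a homeobox gene of the thalamus, gave 153, 64.4 and 9.09 at E13.5 and 10.7, 10.9, 7.18 and 7.74 at P0.5, so that its E13.5 arrays differed widely among themselves, and its call (change -2.50, adjusted p = 0.021) was lost without E13.5 array 1 or 2 (adjusted p up to 0.0879). Probe sets of the list with no gene symbol were also called. A pair of them fell, with log2 changes of -1.48 and -1.09, and another rose by 1.63. The call of the one with the smaller fall was lost without E13.5 array 1 (adjusted p = 0.0552).

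Wild-type forebrain was set beside these values as a reference. There, 13166 probe sets (29.2%) were called between the ages, and 10860 probe sets were called in the same direction in both genotypes, which are 69.5% of the null calls and 82.5% of the wild-type calls. Only 12 were called in opposite directions. Both comparisons came from 1 fit with a shared estimate of spread for each probe set, so their calls are not independent. The study describes null and control samples as littermate pairs, so a difference between the litters of the ages would enter both comparisons. Of the null calls of at least 2-fold, 97.0% had the same sign in wild type. Over all probe sets the age changes of the genotypes had a Pearson r of 0.81, and of 0.95 for the 22519 probe sets above the median signal, a description across probe sets that are no independent replicates. The list medians were -3.12 in null and -3.36 in wild type for mitosis, -2.60 and -2.77 for DNA replication, 1.23 and 1.39 for astrocytes, 1.66 and 2.28 for glutamate receptors, -1.23 and -1.84 for intermediate progenitors, 0.50 and -0.19 for meninges, and 1.27 and -0.01 for choroid plexus. The last 4 of these lay further apart than the first 3, but the 2 medians of a list can come from different genes. Taken gene by gene, the median difference between genotypes was -0.21 for glutamate receptors, 0.28 for intermediate progenitors, 0.57 for meninges and 1.04 for choroid plexus. It was 0.17 for mitosis, 0.12 for DNA replication and -0.007 for astrocytes. The null comparison rests on 7 arrays and the wild-type one on 6, so their numbers of calls cannot be set against each other.

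**Figure D4:**
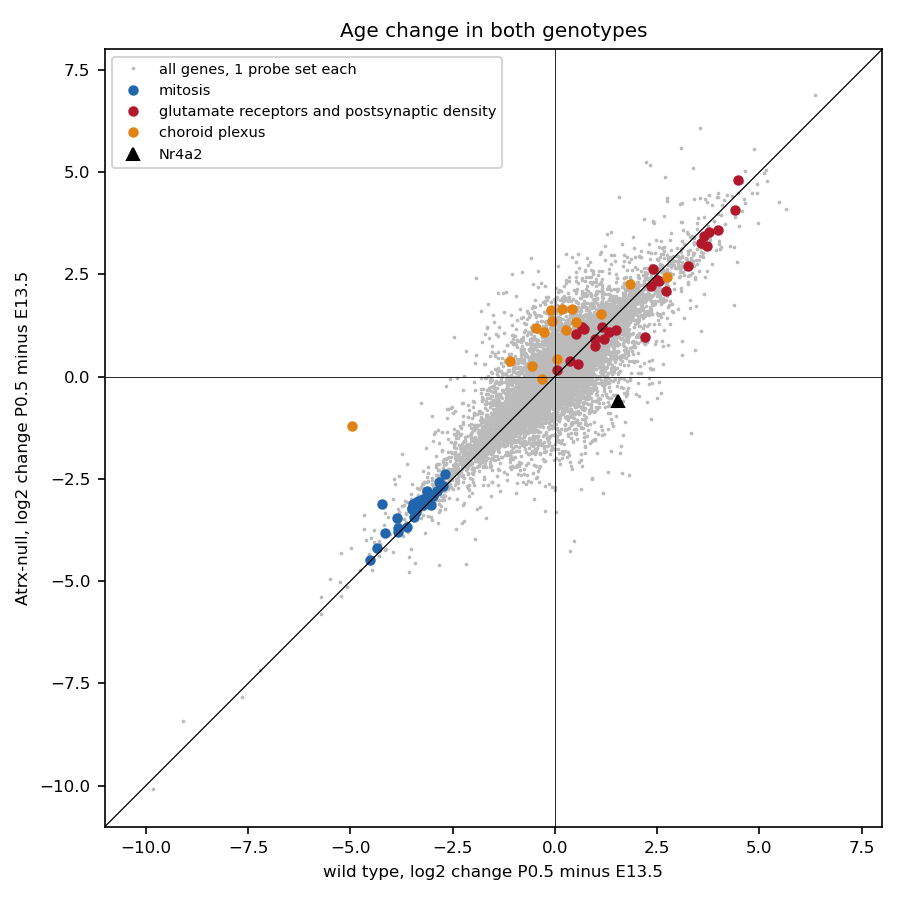
Log2 change from E13.5 to P0.5 in Atrx-null (vertical) against wild-type forebrain (horizontal) for 18193 genes, with mitosis, glutamate receptor and choroid plexus lists coloured, Nr4a2 as a triangle and the line of equal change. Mitosis genes lie near the line, and Nr4a2 lies below it. Glutamate receptor genes had a median change of 1.66 in the null and 2.28 in wild type. Gene by gene their median difference was -0.21, and none passed the test of the difference (smallest adjusted p = 0.77).

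The test of the difference between the genotypes in the age change called 0 of 45037 probe sets (0.0%) by limma, and 2175 (4.83%) had an unadjusted p under 0.05. The smallest p values belonged to Slc15a3, Nr4a2 (2 probe sets), Plcd3, Cbln4, Myh2, Chodl and 3 unnamed probe sets. Slc15a3, a lysosomal peptide transporter, gave 14.1, 18.0 and 14.8 at E13.5 and 14.9, 11.5, 10.7 and 12.4 at P0.5 in the null and 1.33, 0.763 and 1.89 at E13.5 and 8.61, 11.1 and 5.93 at P0.5 in wild type (unadjusted p = 6.3e-06, adjusted p = 0.24). Its signals were dim throughout. Nr4a2 (Nurr1), a nuclear receptor of deep cortical and claustral neurons, gave 215, 211 and 270.3 at E13.5 and 166, 169.9, 163 and 201 at P0.5 in the null and 186, 236 and 234 at E13.5 and 761, 643 and 845 at P0.5 in wild type (unadjusted p = 1.6e-05, adjusted p = 0.24). The rise seen on all 3 wild-type arrays was not seen on any null array, and the small fall in the null (change -0.59, adjusted p = 0.044) was lost with signals as deposited or quantile normalized, with 2A and 2B averaged, without moderation of the variance and without any 1 of 8 arrays (adjusted p up to 0.158, without E13.5 null array 3). Cbln4, a secreted synaptic organizer, gave 95.5, 82.3 and 70.0 at E13.5 and 78.0, 82.8, 78.3 and 57.2 at P0.5 in the null and 46.1, 42.9 and 69.8 at E13.5 and 171, 154 and 140.2 at P0.5 in wild type (adjusted p = 0.3). Under 6 of the alternatives this test called 1 or 2 probe sets, Nr4a2 among them in 5 with an adjusted p between 0.0334 and 0.0457. Slc15a3 was called in 3 of the 6, after quantile normalization, with array weights and without E13.5 wild-type array 3, and only the last of these did not call Nr4a2. The fit reported above did not use the littermate pairs. With the pair as a random block 0 probe sets were called, and both Nr4a2 probe sets had an adjusted p of 0.0511.

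**Figure D5:**
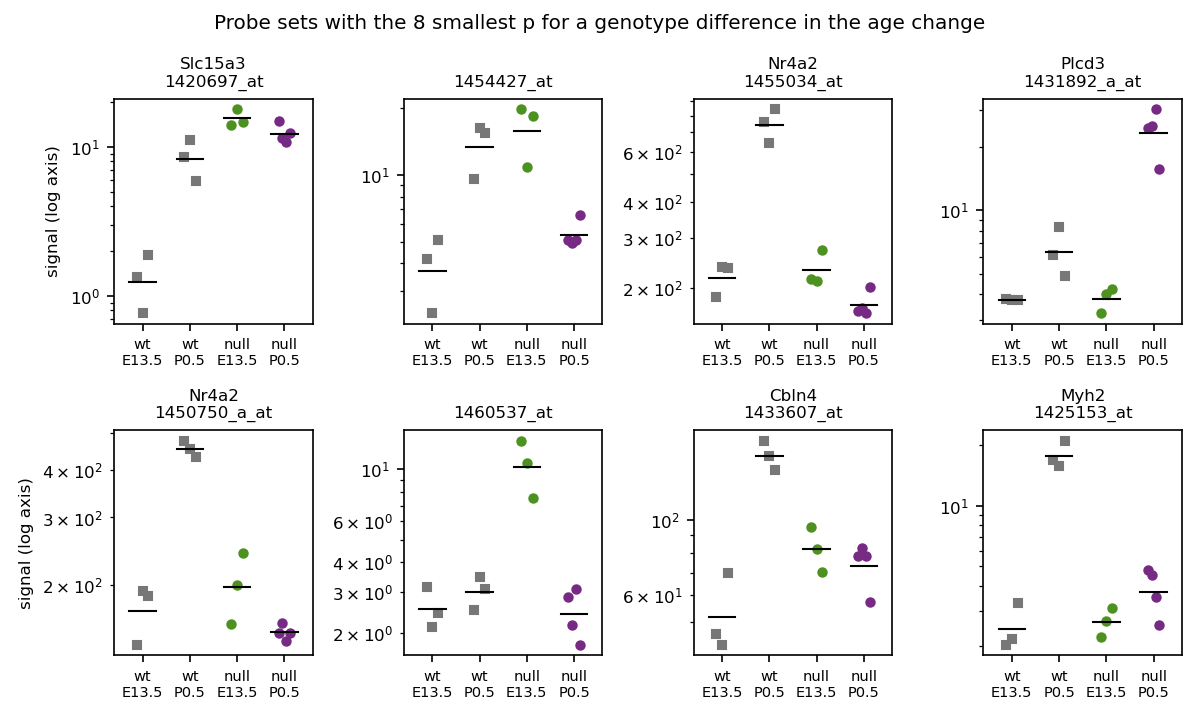
Signal on each array (log axes, arbitrary units) for the 8 probe sets with the smallest p for a genotype difference in the age change, in wild-type (grey squares) and Atrx-null (circles, green at E13.5 and purple at P0.5) forebrain, with lines at the geometric means. Nr4a2 is raised on the P0.5 wild-type arrays alone, and none of the 8 passed after adjustment.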

How the data were processed

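Total forebrain RNA was hybridised to Affymetrix Mouse Genome 430 2.0 arrays, 1 per sample (13 arrays). The authors deposited linear signal intensities computed with GCOS 1.4 and scaled to a target of 150. The mean without the top and bottom 2% of probe sets was 150 on every array. The authors' later normalization is not part of these values, and detection calls were not used, so precision rests on the number of arrays. Signals (floor 0.01, which changed 0 values) were taken as log2 and centred on each array's median, and 64 control probe sets were left out. limma 3.58.1 in R 4.3.3 fitted 1 mean to each of 4 groups, with Benjamini-Hochberg adjustment over 45037 probe sets and a threshold of 0.05. The fit was tested on simulated data. Nothing states that arrays of a group are separate litters, so p-values measure the spread between these samples. The probe set with the highest mean represented each gene, and 34945 probe sets had 1 symbol, 932 several and 9160 none. Named genes were the 12 largest rises and falls with a mean of at least 150 and no overlap, Atrx, the pseudoautosomal genes, per list the 5 smallest p and the 2 brightest others, exchanged gene pairs, and the 10 smallest p for the genotype difference. The tissue markers Tubb3 and Pax6 were fixed with the lists. The promoter that drives Cre is not reported here. The members and lists were chosen with earlier results of these data known. Promoters came from RefSeq tables. Alternatives were other scalings, an offset of 16, a filter at the median signal, other variance models, blocks, probe set means and leaving out each array. The fits without 1 wild-type array were added after seeing the data.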

Additional observations from a re-analysis of the deposited data

Results flagged for a closer look

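Among 127 probe sets named here, 7 had 1 of the 4 P0.5 null arrays far from the other 3, measured as the gap to the nearest array over the whole range on the log2 scale (above the 95% critical value of Dixon's test). Chance gives about 1 in 20. Array 2A stood below the others for Otx1 (gap 0.897), Syn2 (0.889) and Gpr17 (0.86). It stood above them for Hbb-y (0.891), where all P0.5 signals were far below the array medians. Array 1 stood above the others for Actl6b (0.837), array 3 above for Nr4a2 (0.875) and array 2B below for Igf2bp1 (0.843). The E13.5 arrays, 3 in number, were not tested in this way.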

How the results depend on the processing

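Directions of named genes held under the alternatives in all but 14 of 3277 values, and 70 lost a call and 47 gained one. Reversals were all in genes without a call: Stmn1 (-0.032) and Cdh2 (-0.288) as the mean of all probe sets, Nr2f1 as deposited (0.027) and Fabp7 as a ratio of mean linear signals (-0.012). Leaving out 1 array gave -0.304 to 0.071 for Nr2f1, -0.015 to 0.296 for Tuba1a, -0.082 to 0.224 for Gja1, -0.011 to 0.146 for Reln and -0.087 to 0.190 for Fabp7. Without limma's moderation of the variance 3537 probe sets were higher at P0.5 (6237 with it), and the lists had fewer members called: upper layers 5 higher, hippocampus 4, interneurons 5, oligodendrocyte lineage 6, choroid plexus 2 and trophic factors 6 higher, and pseudoautosomal genes 2 lower. Among single genes 17 calls were lost there, Gad1 (adjusted p = 0.0617), Aqp1 (0.155) and Actl6b (0.115) included. Choroid plexus had 6 higher among probe sets above the median signal, which tests fewer members. The neuronal BAF list had 5 higher as deposited and 5 after quantile normalization, and the pseudoautosomal list 2 lower by probe set means. The cause of these shifts was not tested.

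With the wild-type arrays fitted alone, 3394 probe sets were higher and 5008 lower at P0.5. The difference between genotypes called 1 probe set as deposited, 2 after quantile normalization, 1 with the offset, 2 above the median signal and 2 with array weights. Leaving out 1 array gave 0 to 2 calls of that difference, 6 to 10 p53 genes lower, 5 to 10 trophic genes higher and 2 to 4 pseudoautosomal genes lower.

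Littermate pairs lie within an age, so for the age change the replicate block could enter only at random. The littermate pair as a random replicate block gave 5960 higher and 8866 lower. It ended 1 call among named genes, that of an Atrx probe set (adjusted p = 0.0599). For the difference between genotypes a fixed block of pairs was possible but was not fitted. As a random block the pairs gave 0 calls of that difference. The replicate number as a fixed replicate block gave 5532 higher and 8039 lower, and 4 hippocampal genes higher against 7. Deviations of same-numbered arrays across ages had correlations of -0.03 to 0.036, so the numbers do not pair the samples. With no detection calls, dim signals give a direction but only an approximate fold.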

Other observations

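Further gene groups were counted between E13.5 and P0.5 in Atrx-null forebrain. Over all genes 16.4% were higher and 23.2% lower, and several of these groups lay near those shares. Immediate early and glucocorticoid response genes were higher in 15 of 28 cases and lower in 5, with a median log2 change of 0.64. Egr1, a transcription factor that neuronal activity induces, gave 107, 96.6 and 108 at E13.5 and 380.0, 483, 595 and 449.8 at P0.5 (change 2.00 ± 0.19, adjusted p = 1.8e-05). Klf9, a factor induced by thyroid hormone and glucocorticoids, gave 55.9, 64.6 and 45.5 at E13.5 and 389, 449, 508 and 439 at P0.5. Ier2, a growth factor response gene, gave 503, 373 and 498 at E13.5 and 113, 141, 119 and 145 at P0.5 and fell, so members of this list moved both ways. Imprinted genes were lower in 9 of 29 cases and higher in 6. Mest, a paternally expressed gene of fetal tissue, gave 1949, 1728 and 1952 at E13.5 and 487, 495, 389 and 544 at P0.5. Nap1l5, a paternally expressed gene of brain, gave 130.2, 149 and 114 at E13.5 and 805, 746, 895 and 898 at P0.5 and rose.

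Of the cholesterol synthesis genes 7 of 20 were lower and 0 higher. Idi1, an isomerase of the pathway, gave 919, 777 and 919.9 at E13.5 and 635, 478, 445 and 471 at P0.5 (change -0.98, adjusted p = 0.0023). Glucose and fuel genes were higher in 7 of 29 cases and lower in 5, and 11 were higher with the offset of 16. Hexokinases, which trap glucose in the cell, divided: Hk1 had a change of 0.95 (adjusted p = 0.00022) and Hk2 one of -2.31 (adjusted p = 7.6e-06). Pfkp, the platelet-type phosphofructokinase, gave 63.7, 108 and 100.5 at E13.5 and 479.6, 387, 462 and 370.4 at P0.5 and rose. Trophic factors and their receptors were higher in 10 of 29 cases and lower in 6, and 5 were higher without E13.5 array 3. Nrg3, a neuregulin of neurons, gave 12.5, 26.7 and 22.9 at E13.5 and 202, 185, 224 and 198 at P0.5. Genes of p53 targets and apoptosis were lower in 10 of 28 cases and higher in 5, and 6 were lower without E13.5 array 3. Complement genes were higher in 6 of 18 cases and lower in 2. C1s1, a protease of the classical pathway, had a change of 1.88 (adjusted p = 0.0026). Interferon and antigen presentation genes were higher in 3 of 26 cases (11.5%) and lower in 1 (3.8%), both under the shares over all genes. With signals as deposited 8 of them were higher.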
